A study of Mus musculus with 25 samples.

Results

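The subunits of mitochondrial oxidative phosphorylation were followed in mouse back skin over the hair growth cycle. Members were chosen by gene symbol alone. A probe set, the group of short probes that gives 1 value per transcript, was a member when its 1 annotated symbol began with Ndufa, Ndufb, Ndufc, Ndufs, Ndufv, Sdha to Sdhd, Uqcr, Cox4 to Cox8 or Atp5, or was Cyc1 or Cycs. This gave 103 of the 12488 probe sets on the array, for 75 of the 8252 genes named by a single symbol, and 86 probe sets of 71 genes passed a filter on low intensity. The 17 others, among them Cox8a, both probe sets of Cox5a, and Ndufa12, were not tested. A further 7 probe sets that fitted the rule but carried several symbols were left out. The 86 comprised 32 of complex I, 4 of complex II, 9 of complex III, 15 of complex IV, 21 of complex V and 1 of the carrier Cycs, plus 4 assembly factors that share the prefixes (Ndufaf1, Ndufaf4, Sdhaf1 and Sdhaf2).

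Total RNA of whole back skin was measured on 25 arrays, each labelled as 1 mouse. Skin came from postnatal days 1, 6, 14, 17 and 23, 9-week, 5-month and 1-year mice, with 3 mice per age and 4 at 1-year. The labels give no genotype, strain, sex or treatment, so age is the difference on record between groups. In young mice the follicles of the back pass together through growth, regression and rest.

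Oxidative phosphorylation is the last stage of respiration in mitochondria. Complexes I and II pass electrons from NADH and succinate to ubiquinone, complex III passes them on to cytochrome c, and complex IV (cytochrome c oxidase) gives them to oxygen, while complexes I, III and IV pump protons across the inner membrane. Complex V, the ATP synthase, uses that gradient to make ATP. Some subunits of complex IV exist in a form typical of heart and skeletal muscle and in a form found in most tissues: Cox6a2 against Cox6a1, Cox7a1 against Cox7a2, and Cox8b against Cox8a. Mouse back skin carries a thin sheet of striated muscle, the panniculus carnosus, beneath its fat layer.

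The ages were split into sets by the highest intensity on their arrays, and every comparison here is read by that split. The highest intensity was 22033.5 to 36049 units on arrays of days 1, 17 and 23 and 5-month, and 41699.8 to 78877 on those of days 6 and 14, 9-week and 1-year. The cut was drawn from these values and is no clear break. Steps of like size lie within a set, such as 26687.7 units on a day 1 array to 31315.4 on a 5-month array. The labels name no such sets, and in a comparison across them age and set cannot be told apart. Comparisons within a set are therefore given first: day 23 against day 17, and 9-week against day 14. Within an age, arrays correlated at 0.844 to 0.968. The female transcript Xist and the male transcript Eif2s3y were both above the floor on all day 6 and day 17 arrays and 2 of 3 day 1 arrays, and on none of the others. The labels give 1 mouse per array, and whether arrays with both transcripts hold RNA of several mice was not tested. P-values and SDs measure the spread between these arrays, whatever each holds.

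The results turn first on muscle and ubiquitous forms of complex IV subunits, Cox7a1 having the widest span of age means among the members once low values are raised to the floor, so the start regions of 4 of these genes are shown. Each is the window from 250 bases before to 50 bases after the RefSeq transcript start in GRCm38.p6, read 5′ to 3′ on the gene's strand. The windows are chr7:30183921-30184220 (plus strand) for Cox7a1, chr7:140900397-140900696 (minus) for Cox8b, chr9:79759804-79760103 (minus) for Cox7a2 and chr5:115348909-115349208 (minus) for Cox6a1. Capitals mark matches, on either strand, to 5 motifs: the NRF1 motif with a free base inside, CCGGAAG of ETS factors, the E-box CAGCTG, the MEF2 motif with free bases between its arms, and the GC box GGGCGG.
Cox7a1: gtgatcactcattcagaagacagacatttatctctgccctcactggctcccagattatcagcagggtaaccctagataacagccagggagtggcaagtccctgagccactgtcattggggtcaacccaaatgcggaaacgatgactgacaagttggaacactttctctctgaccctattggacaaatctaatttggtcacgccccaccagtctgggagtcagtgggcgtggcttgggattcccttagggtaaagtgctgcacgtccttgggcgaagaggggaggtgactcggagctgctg
Cox8b: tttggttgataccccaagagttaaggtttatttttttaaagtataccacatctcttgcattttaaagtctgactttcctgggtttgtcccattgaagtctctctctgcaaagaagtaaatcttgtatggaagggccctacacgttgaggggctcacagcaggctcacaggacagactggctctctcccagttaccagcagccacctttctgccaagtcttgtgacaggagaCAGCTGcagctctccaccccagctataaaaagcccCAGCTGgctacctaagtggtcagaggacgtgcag
Cox7a2: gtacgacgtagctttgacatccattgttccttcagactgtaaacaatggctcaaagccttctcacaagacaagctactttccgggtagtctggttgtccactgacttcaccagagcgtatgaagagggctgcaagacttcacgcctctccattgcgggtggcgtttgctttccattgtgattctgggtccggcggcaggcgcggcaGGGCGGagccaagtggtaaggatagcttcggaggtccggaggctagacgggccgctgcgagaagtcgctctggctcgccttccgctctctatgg
Cox6a1: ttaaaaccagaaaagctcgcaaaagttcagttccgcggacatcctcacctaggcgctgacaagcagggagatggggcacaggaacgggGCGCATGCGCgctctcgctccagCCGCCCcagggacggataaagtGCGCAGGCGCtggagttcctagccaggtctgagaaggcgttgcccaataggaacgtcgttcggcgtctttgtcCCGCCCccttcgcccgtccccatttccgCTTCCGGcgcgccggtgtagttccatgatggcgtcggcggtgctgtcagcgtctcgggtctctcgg
The Cox7a1 window holds no match to these motifs and the Cox8b window holds 2 E-boxes. The Cox7a2 window holds 1 GC box, and the Cox6a1 window holds 2 NRF1 motifs, 1 ETS motif and 2 GC boxes. A match is a string of letters, not a measured binding site.

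Cox7a1 and Cox6a2 were lowest on days 6 and 14 and highest from day 23 or 9-week on. Cox7a1, a subunit of heart and skeletal muscle oxidase, had intensities of 118.9, 192.8 and 72.1 units on day 1 in mice 1, 2 and 3. It had 38.1, 55.4 and 6.6 on day 6 and 78.4, 62.3 and 54 on day 14. It had 190.5, 184 and 283.9 on day 17, 512.2, 337 and 581.4 on day 23, and 440.3, 633.2 and 789.6 at 9-week. Day 23 lay wholly above day 17, and 9-week wholly above day 14, while 9-week and day 23 overlapped. The log2 change of Cox7a1 was 1.11 ± 0.34 (SE) for day 23 against day 17 (limma, adjusted p = 0.01726) and 3.24 ± 0.34 for 9-week against day 14 (limma, adjusted p = 8.417e-07). The day 23 call was lost without day 17 mouse 1 or 2 or day 23 mouse 1 or 3 (0.95 to 1.04) and with all 25 arrays in 1 fit. With a covariate for arrays that had both Xist and Eif2s3y the day 23 change was 0.05 (limma, adjusted p = 0.9738). That covariate is estimated from the day 1 arrays alone, where mouse 2, with the highest Cox7a1 value, was the 1 without both transcripts. Cox7a1 was at 407.2, 453.6 and 283.7 units at 5-month.

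Cox6a2, the muscle form of a regulatory oxidase subunit, went the same way at a higher intensity. Its values were 2721.3, 2736.1 and 2504.3 on day 1, 1330.1, 1993 and 1449.6 on day 6, and 1098.5, 2117 and 1293.6 on day 14. They were 2712.6, 2177.3 and 2265.9 on day 17, 6280.4, 4015.1 and 4575.1 on day 23, and 11009.6, 10551.8 and 11077 at 9-week. The 9-week arrays lay above those of each earlier age, and the day 23 arrays above day 17. Cox6a2 rose by 1.04 ± 0.21 (SE, log2) from day 17 to day 23 (limma, adjusted p = 0.0008029) and by 2.91 ± 0.21 from day 14 to 9-week (limma, adjusted p = 7.253e-09). With the covariate the day 23 change was 0.97 and did not pass (limma, adjusted p = 0.1467). At 5-month Cox6a2 was at 5908.1, 6386.1 and 5952.7 units.

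Cox8b, the muscle form of the smallest oxidase subunit, was measured by 2 probe sets. The brighter one had 903.5, 1091 and 891.5 units on day 14 and 3674.7, 3146.1 and 2698.2 at 9-week, with no overlap. The dimmer one had 116.8, 94.4 and 122 units on day 14 and 348.6, 322.1 and 346.1 at 9-week, also with no overlap. They rose by 1.72 ± 0.15 and 1.62 ± 0.20 (SE, log2) from day 14 to 9-week (limma, adjusted p = 1.066e-07 and 5.774e-06). From day 17 to day 23 the brighter one rose by 0.71 ± 0.15 (limma, adjusted p = 0.001512), and the dimmer one had a change of 0.50 ± 0.20 that did not pass (limma, adjusted p = 0.06378). The call of the brighter one was lost with the covariate (0.53) and with all 25 arrays in 1 fit. For day 6 against day 1, across the array sets, they disagreed: the brighter one rose by 0.42 ± 0.15 and the dimmer one fell by 1.05 ± 0.20, both called. The rise lost its call in 9 of 29 settings, among them without day 1 mouse 1 or 3 or any 1 of the day 6 mice (0.36 to 0.47). Cox8a, its ubiquitous partner, did not pass the filter.

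The ubiquitous forms did not share this course. Cox7a2 had 6480.2, 6569.8 and 6173 units on day 14 and 4480.9, 4818.4 and 5260.2 at 9-week, so that the older arrays lay wholly below. Its log2 change of -0.40 ± 0.08 (SE) was called (limma, adjusted p = 0.0006007). Cox6a1 had 8930.7, 9334.6 and 9301.6 units on day 14 and 7704.2, 7405.9 and 6874.5 at 9-week, and it fell by 0.33 ± 0.08 on the log2 scale (limma, adjusted p = 0.001726). From day 17 to day 23 neither passed, with log2 changes of -0.19 ± 0.08 for Cox7a2 and -0.13 ± 0.08 for Cox6a1. Cox7a2l, a related protein known for its part in joining complexes into supercomplexes, had log2 changes of 0.04 ± 0.12 and 0.18 ± 0.12 in these comparisons and did not pass in either.

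**Figure D1:**
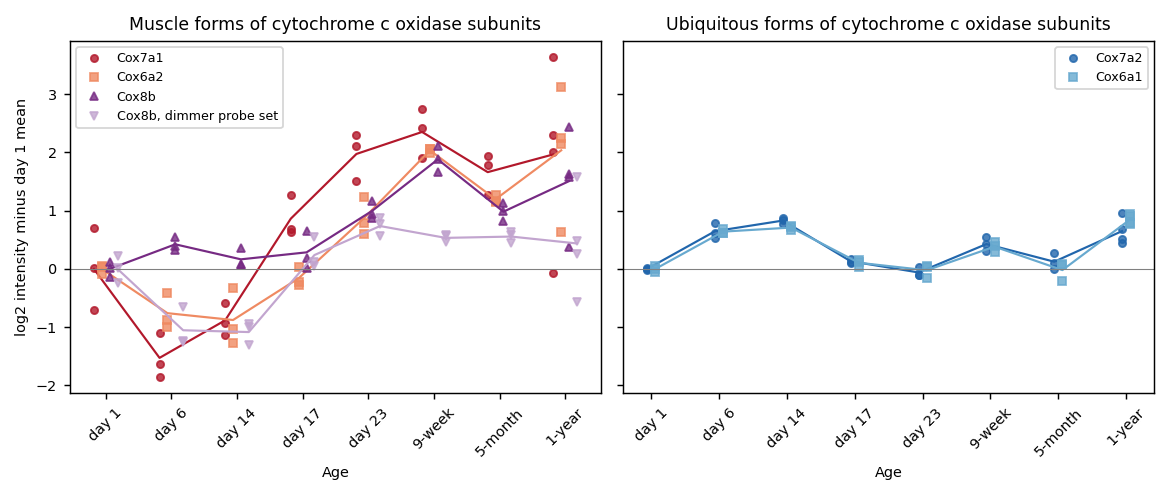
Log2 intensity of muscle and ubiquitous forms of cytochrome c oxidase subunits on each array (points; lines join the age means), minus the probe set's day 1 mean, against age. Cox7a1 lies near 3.2 log2 units higher at 9-week than on day 14, while Cox7a2 and Cox6a1 lie lower by 0.40 and 0.33.

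The ratio of forms within an array does not depend on the factor by which that array was scaled. A shift that differs with intensity does not cancel, and Cox7a1 was far dimmer than Cox7a2 (mean log2 7.73 and 12.17). For day 17 against day 14, across the sets, the median change of all probe sets was -0.09 in the top quartile and 0.23 below the median. The part of such shifts in the ratios was not tested. On day 6 the Cox7a1 value of mouse 3 was at the floor of 32.7 units. Set to 0 at its day 1 mean, the log2 ratio of Cox7a1 to Cox7a2 averaged -2.17 ± 0.26 on day 6 (SD, n = 3), and -1.71 ± 0.24 on day 14. It was 0.73 ± 0.38 on day 17, 2.04 ± 0.39 on day 23 and 1.93 ± 0.31 at 9-week. The ratio of Cox6a2 to Cox6a1 was -1.40 ± 0.27 on day 6, -1.59 ± 0.47 on day 14, -0.27 ± 0.14 on day 17, 0.90 ± 0.33 on day 23 and 1.65 ± 0.10 at 9-week. Between day 14 and 9-week the ratio shifted 12.5-fold for Cox7a1 over Cox7a2 and 9.45-fold for Cox6a2 over Cox6a1, and between days 17 and 23 by 2.47-fold and 2.24-fold. Groups did not overlap in these 4 comparisons, and each had p = 0.1 in a 2-sided exact permutation test, the smallest that 3 arrays against 3 allow. Probe affinities differ, so the ratio shows a shift in balance and not which form was the more abundant.

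Skeletal muscle markers moved along with the muscle forms. The summed intensity of 27 muscle genes on the table, among them the actin Acta1, the creatine kinase Ckm and troponins, was 52822 to 60547 units on day 14 arrays, 84478 to 91546 on day 17, 150730 to 188620 on day 23 and 283040 to 323860 at 9-week. Of 26 tested muscle genes 20 rose and 2 fell for day 23 against day 17 (median log2 change 0.95), and 23 rose and 2 fell for 9-week against day 14 (median 2.86). Of the defining markers, Myh2 was at the floor on all arrays of each age but day 1, and Tcap on those of days 6 and 14. In whole tissue, fewer cells of a type and less RNA per cell cannot be told apart, and the part of muscle content in the changes of the other members was not tested.

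The 4 mice of 1-year differed widely in the muscle forms. Cox7a1 had 1478.2, 474.5, 112 and 581.2 units in mice 1 to 4, and the muscle sum had 506522, 293866, 134557 and 321700. Mouse 1 was highest and mouse 3 lowest in both. Cox6a2 had 23101.2, 12576.6, 4120.4 and 11701.8 units, again with mouse 1 highest and mouse 3 lowest. The summed intensity of 10 hair shaft genes ran the other way at its ends, with 1626.1 units in mouse 1 and 299826 in mouse 3. The ratio of Cox7a1 to Cox7a2 spanned -0.59 to 2.69 at this age, and differed from 9-week by less than the spread (exact permutation p = 0.686, where 0.0286 is the smallest possible).

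**Figure D2:**
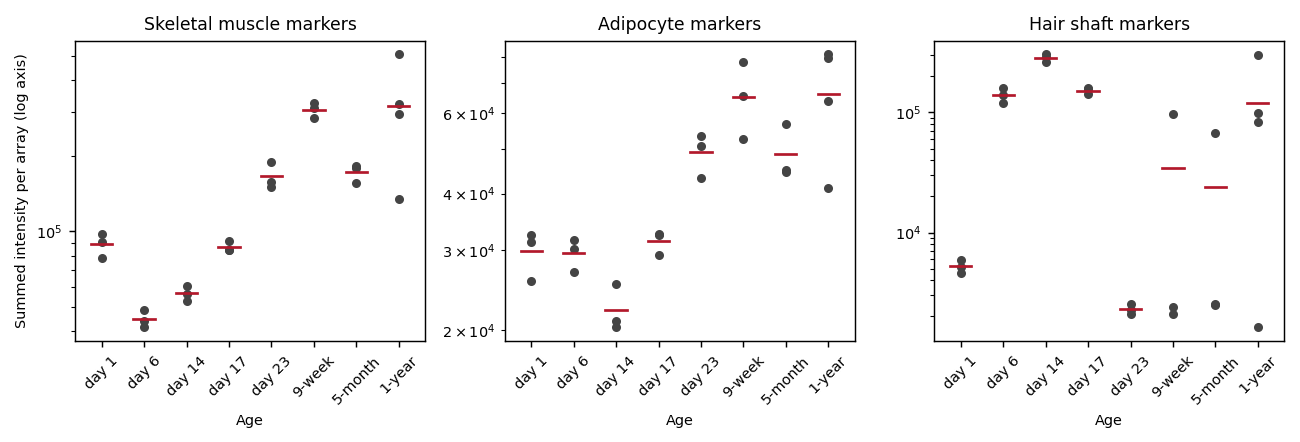
Summed intensity per array of marker lists against age, on a log axis, with 1 point per array and a red bar at the age mean; panels show skeletal muscle, adipocyte and hair shaft genes. The skeletal muscle sum is lowest on day 6 and spans 134560 to 506520 units over the 4 1-year mice.

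Among the 6 ages up to 9-week, 74 of the 86 members differed in the limma F test, or 86%, where 79.2% of all 8835 tested probe sets did. In the top quartile of intensity 98.1% of the members and 92.9% of all probe sets did. Below the median intensity the shares were 66.7% and 68.9%. All 4 probe sets of complex II and all 9 of complex III passed, as did 30 of 32 in complex I, 13 of 15 in complex IV and 15 of 21 in complex V. The age means of the members spanned 1.99-fold at the median, those of all probe sets 2.22-fold, and those of the 4 muscle-form probe sets 5.27-fold. Over all 8 ages, 29 members (33.7%) had their lowest mean on day 17 and 39 (45.3%) their highest at 1-year, against 9.76% and 8% of all probe sets. This went with intensity. Of the 54 members in the top quartile of intensity 28 were lowest on day 17 and 37 highest at 1-year. Of the 24 below the median intensity none was either, while 8 were highest on day 17 and 7 lowest at 1-year. Highest and lowest ages were not counted for all probe sets of like intensity, so no excess over that intensity can be read here. Day 17 and 1-year lie in different array sets.

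For day 23 against day 17, 41 of the 86 members rose and 6 fell (limma, adjusted p under 0.05). Of all probe sets 38.3% were called, 19.5% higher and 18.8% lower. The median change of the members was 0.29 (log2) and that of all probe sets -0.02. The rises lay in bright members: in the top quartile of intensity 36 of 54 rose and 1 fell, where 30.4% of all probe sets of that intensity rose. Below the median intensity 3 of 24 rose and 5 fell, with a median of -0.36, where 12.5% of all rose and 17% fell. Leaving out the muscle and testis forms, 38 of 80 rose and 6 fell. With only the brightest probe set of each gene, 39 of 71 rose and 2 fell. The number of calls rests on how sex markers are treated. With a covariate for arrays that had both markers, chosen after the data were seen, 2 rose and 2 fell. The median change was then 0.19. The 3 day 17 arrays all had both markers and the day 23 arrays did not, so the covariate can be told from age through the day 1 arrays alone. On day 1, 2 arrays had both markers and 1 did not, so its estimate is imprecise. Whether calls were lost to the sex markers or to this loss of precision cannot be told apart. Changes given for single members in this comparison are from the fit without the covariate. With all 25 arrays in 1 fit, 24 rose and 2 fell.

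For 9-week against day 14, 47 members rose and 7 fell, where 47.6% of all probe sets were called, 22.2% higher and 25.4% lower. The median change was 0.33 for the members and -0.07 for all probe sets. In the top quartile of intensity 38 of 54 rose and 4 fell, where 29.4% of all rose, and below the median intensity 7 of 24 rose and 3 fell, where 17.8% of all rose. Without the muscle and testis forms 43 of 80 rose and 7 fell. With only the brightest probe set of each gene, 46 of 71 rose and 4 fell. With the covariate for both sex markers 46 rose and 7 fell. No array of day 14 or 9-week had both markers, so the covariate could alter the spread but not these changes. These arrays are all different from those of days 17 and 23, although the spread was estimated in 1 fit. Of the 41 members that rose by day 23, 32 (78%) also rose by 9-week, which is 68.1% of those that rose by 9-week. Over all probe sets the shared risers were 57.8% and 50.6% of the same lists. These shares rest on unlike bases, since 54.7% of the members and 22.2% of all probe sets rose by 9-week, so no excess of shared risers can be read from them. No member was called in opposite directions in these comparisons.

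**Figure D3:**
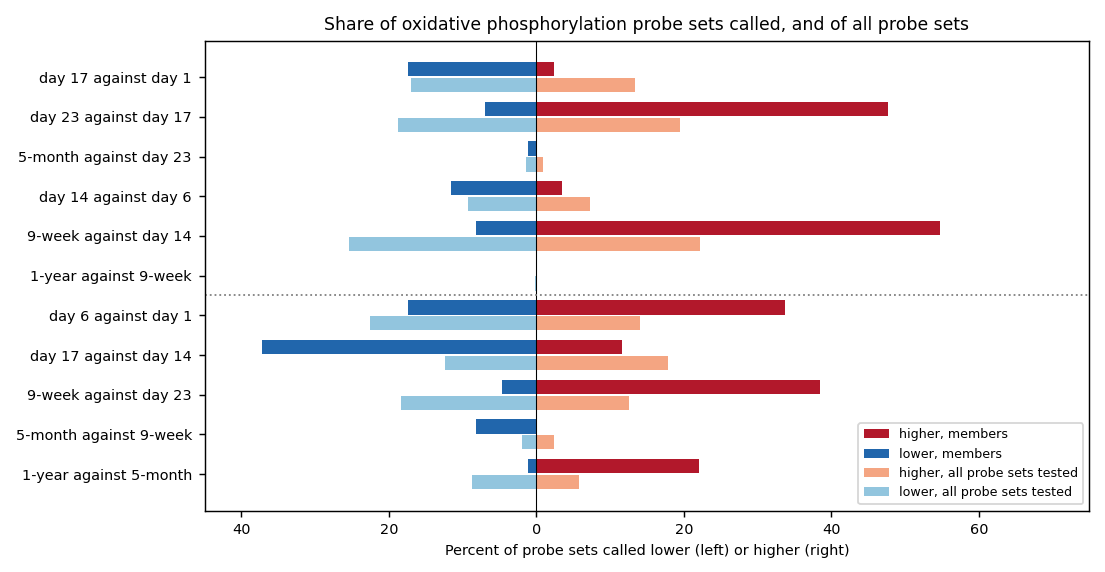
Percent of the 86 members and of all 8835 probe sets called higher (right) or lower (left) in each comparison (limma, adjusted p under 0.05). The dotted line separates comparisons within an array set from those across sets, and the largest excess of risers is for 9-week against day 14, with 54.7% of members against 22.2% of all.

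Complex I, the NADH dehydrogenase, had 17 of 32 probe sets higher and 2 lower on day 23 than on day 17, and 22 higher and 2 lower at 9-week than on day 14. Ndufab1, an acyl carrier protein that is also a subunit, had 810.1, 1159.1 and 799 units on day 14 and 1822.1, 2689.3 and 2516.6 at 9-week. These groups did not overlap, and the change was 1.35 ± 0.17 (SE, log2; limma, adjusted p = 5.126e-06), with 0.91 ± 0.17 from day 17 to day 23 (limma, adjusted p = 0.0004499). Ndufv3, a subunit of the NADH-binding module, had 425.2, 455.9 and 370.3 units on day 17 and 868.6, 781.1 and 1027.4 on day 23. It rose by 1.09 ± 0.16 there (limma, adjusted p = 5.339e-05) and by 0.89 ± 0.16 from day 14 to 9-week. Ndufa5, of the arm that faces the matrix, rose by 0.79 and 0.86. Ndufa6, Ndufc1 and Ndufs4 rose from day 14 to 9-week by 1.23 ± 0.14, 1.12 ± 0.21 and 1.23 ± 0.42, and did not pass from day 17 to day 23, with 0.27 ± 0.14, 0.31 ± 0.21 and 0.83 ± 0.42. Ndufa13, an accessory subunit, rose by 0.44 ± 0.10 and 0.75 ± 0.10. The narrowest span of age means was 1.41-fold, in a probe set of Ndufv2 that passed in neither comparison. The core subunits Ndufs1 and Ndufv1 rose in both comparisons by smaller amounts, 0.38 and 0.38 by day 23 and 0.32 and 0.57 by 9-week. Ndufs4 was dim, at 68.3, 107.2 and 46.4 units on day 14. The changes of Ndufv3, Ndufa5, Ndufa6, Ndufc1, Ndufs4, Ndufs1 and Ndufv1 were not followed through the other settings. Ndufc2, near the floor at 48.9, 43.8 and 34.7 units at 9-week, fell by 1.38 ± 0.36 from day 14. With the floor at the 40th percentile its change was -0.05 and did not pass.

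Complex II, the succinate dehydrogenase shared with the tricarboxylic acid cycle, rose in all 4 subunits in both comparisons. Sdha, the flavoprotein that oxidises succinate, had 293.9, 258.3 and 244.8 units on day 17 and 697.9, 589.3 and 673.6 on day 23, which do not overlap. Its change was 1.30 ± 0.19 (SE, log2; limma, adjusted p = 6.524e-05). From day 14, with 249.2, 211.7 and 233.2 units, to 9-week, with 359.5, 501.7 and 620.9, it rose by 1.06 ± 0.19 (limma, adjusted p = 0.000244). Sdhb, the iron-sulfur subunit, rose by 0.46 ± 0.13 and 0.73 ± 0.13 in these comparisons. The membrane anchors rose by 0.65 ± 0.10 and 0.59 ± 0.10 for Sdhc and by 0.68 ± 0.12 and 0.82 ± 0.12 for Sdhd. With the covariate for both sex markers the day 23 changes were 1.13 for Sdha (adjusted p = 0.06694), 0.55 for Sdhb, 0.67 for Sdhc (adjusted p = 0.04566) and 0.67 for Sdhd, and Sdhc alone passed. With all 25 arrays in 1 fit Sdhb did not pass.

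Complex III, the cytochrome c reductase, had 7 of 9 probe sets higher and 1 lower on day 23 than on day 17, and 6 higher and 1 lower at 9-week than on day 14. The core protein Uqcrc2 had 1034.2, 1074.8 and 1421.9 units on day 17 and 2099.5, 2209.4 and 1629 on day 23. It had 1642.6, 1585.4 and 1308.4 on day 14 and 3273.3, 3702.2 and 3039.5 at 9-week. Neither pair overlapped, and Uqcrc2 rose by 0.75 ± 0.15 and 1.15 ± 0.15 (limma, adjusted p = 0.0008052 and 7.905e-06). Uqcr11, a small accessory subunit, rose by 0.73 ± 0.12 and 0.62 ± 0.12. Uqcrb, which had the narrowest span at 1.89-fold, rose by 0.42 ± 0.14 and 0.38 ± 0.14. Its calls did not hold without day 17 mouse 2 or 3 or day 23 mouse 1 in the first comparison (0.33 to 0.41), nor without day 14 mouse 1 or 2 or 9-week mouse 2 or 3 in the second (0.24 to 0.39). Cyc1, the cytochrome c1 that hands electrons to cytochrome c, gave 2 readings: the fall was in the dimmer of its probe sets (-0.44 ± 0.15 and -0.45 ± 0.15), while the brighter had 0.19 ± 0.10 and 0.03 ± 0.10 and did not pass. Both are bright, with mean log2 intensities of 12.58 and 12.85 over all arrays. On day 17 the dimmer one had the higher mean, 7779 against 5286 units. The falls of the dimmer one lost their call in 7 and 4 of 29 settings, among them without day 17 mouse 2 or 3 or day 23 mouse 3 (-0.45 to -0.34), and without day 14 mouse 1 or 3 or 9-week mouse 3 (-0.43 to -0.35). Cycs, the soluble electron carrier cytochrome c, had 234.1, 260.4 and 284.5 units on day 17 and 363.8, 444.3 and 572.3 on day 23. It rose by 0.81 ± 0.20 there (limma, adjusted p = 0.004159), and its 0.46 ± 0.20 from day 14 to 9-week did not pass.

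Of the other subunits of complex IV, Cox5b, which sits on the matrix side, rose by 0.26 ± 0.09 and 0.30 ± 0.09 in the day 23 and 9-week comparisons, and Cox7b by 0.26 ± 0.10 and 0.57 ± 0.10. The changes of Cox5b and Cox7b were not followed through the other settings. Cox4i1, of the largest nuclear-coded subunit, was called by 1 of its 2 probe sets, with 0.53 ± 0.20 from day 14 to 9-week, against 0.24 ± 0.22 for the other. That call was lost without day 14 mouse 1 or 2 or 9-week mouse 1 or 3 (0.43 to 0.52). The other paired forms showed no such contrast. Cox6b1 had changes of -0.67 ± 0.31 and -0.30 ± 0.31 in these comparisons and its testis form Cox6b2 -0.30 ± 0.24 and -0.11 ± 0.24, and none passed. Cox6b2 fell by 1.04 ± 0.24 from day 6 to day 14, from 440.8, 460.1 and 535.1 units to 269.1, 207.4 and 223.1. Cox8c had -0.04 ± 0.16 and 0.10 ± 0.16 and did not pass. Complex IV as a whole had 6 of 15 probe sets higher and none lower on day 23, and 7 higher and 2 lower at 9-week, the latter being Cox6a1 and Cox7a2.

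Complex V held calls both ways. On day 23 6 of its 21 probe sets were higher and 3 lower than on day 17, and at 9-week 7 were higher and 2 lower than on day 14, with a median change of -0.04. The complexes differ in the intensity of their probe sets and in the number of probe sets per gene. Counts and medians by complex were adjusted for neither, so a difference between complexes cannot be read from them. Atp5c1, the central gamma subunit of the motor, rose by 0.70 ± 0.07 and 0.64 ± 0.07 in its brighter probe set and by 0.37 ± 0.10 by day 23 in the other, which had -0.10 ± 0.10 at 9-week and did not pass. The Atp5c1 changes were not followed through the other settings. Atp5e, the epsilon subunit, rose by 0.80 ± 0.15 from day 14 to 9-week and had 0.19 ± 0.15 by day 23. Atp5d, the delta subunit, was called lower in 1 of 5 probe sets by day 23 and in 2 by 9-week. The fall of 0.87 ± 0.27 in its widest-ranging probe set by 9-week was not called without 9-week mouse 2 (-0.60). Atp5g2, of the membrane ring, rose by 0.66 ± 0.12 in its brighter probe set and fell by 0.91 ± 0.33 in its dimmer one between days 17 and 23. The fall lost its call in 8 of 29 settings, among them without any 1 of the day 17 mice or day 23 mouse 3 (-1.01 to -0.64). The 2 probe sets of Atp5g1, another gene of the ring, passed in neither comparison. Atp5pb, of the stalk, rose by 0.95 ± 0.20 from day 6 to day 14 and fell by 0.56 ± 0.20 from day 17 to day 23, a call lost without day 17 mouse 1 or 3 or day 23 mouse 1 or 3 (-0.55 to -0.45). Of the 4 assembly factors, Sdhaf2 rose by 0.46 ± 0.16 from day 14 to 9-week, a call lost without day 14 mouse 2 or 3 or 9-week mouse 3 (0.39 to 0.42), and the others passed in neither comparison.

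**Figure D4:**
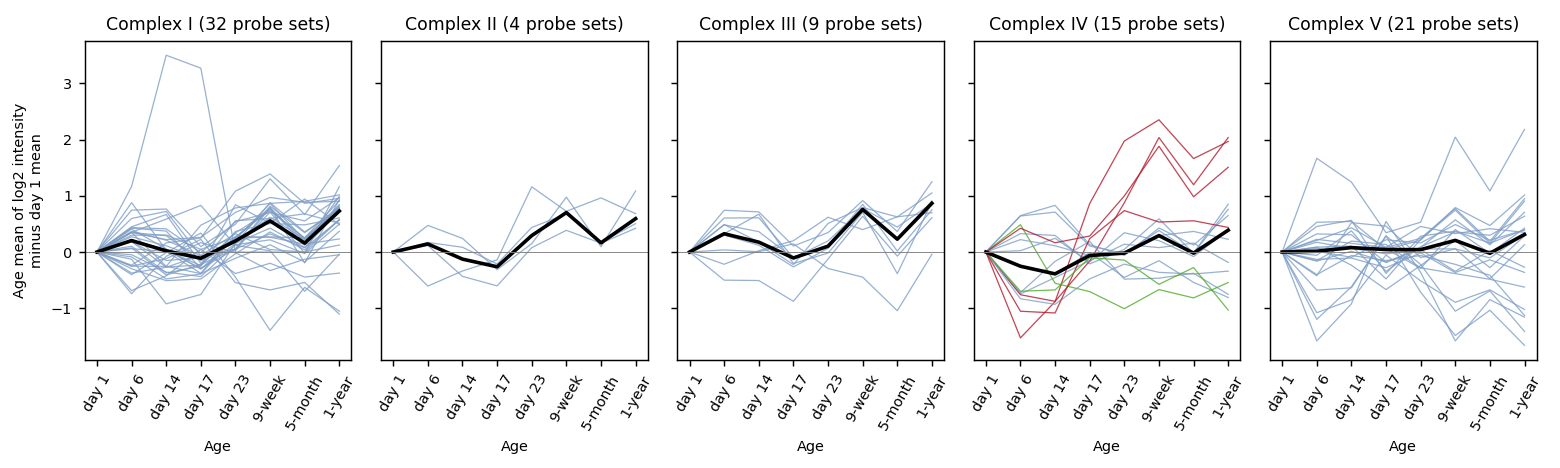
Age means of log2 intensity minus the day 1 mean for each member probe set (thin lines, muscle forms red and testis forms green) and their median (black line), by complex. Medians at 9-week were 0.56 for complex I, 0.70 for II, 0.76 for III, 0.29 for IV and 0.21 for V. Intensity and the number of probe sets per gene differ between complexes.

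Probe sets of a gene did not always agree. Ndufb2, an accessory subunit of complex I, had 1 probe set with 366.8, 291.9 and 473.5 units on day 14, 355.2, 306.9 and 288.5 on day 17, and no array above the floor of 32.7 units on days 1 and 23 or at 9-week. It was at least 9.65-fold lower on day 23 than on day 17 and at least 11.3-fold lower at 9-week than on day 14. The other Ndufb2 probe sets tested were bright, at 2761.5 to 3160 units on day 17, and rose by 0.55 ± 0.14 and 0.40 ± 0.10 by day 23. Whether the dim probe set measures Ndufb2 was not tested. Atp5l also had probe sets called both ways for day 17 against day 14, and Atp5d for 9-week against day 23. The Atp5d fall lost its call in 10 of 29 settings, among them without day 23 mouse 1 or 2 or 9-week mouse 2 or 3 (-0.78 to -0.51).

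Changes across the array sets went with intensity, and those within a set also did, to a lesser degree. Spearman rho of the members' change with mean intensity was 0.55 for day 6 against day 1. It was -0.69 for day 17 against day 14 and 0.57 for 9-week against day 23. Within the sets it was 0.30 for day 23 against day 17, 0.20 for 9-week against day 14 and 0.49 for 1-year against 9-week. For day 6 against day 1, 29 members rose and 15 fell, where 36.6% of all were called, 14.1% higher and 22.5% lower. Of the 54 members in the top quartile of intensity 26 rose and 5 fell, where 32.9% of all rose and 16.4% fell. Of the 24 below the median intensity 1 rose and 9 fell, where 5.05% of all rose and 24.3% fell. Over all probe sets the median change was 0.11 in the top quartile and -0.34 below the median. Under quantile normalisation 18 members rose and 15 fell, and with arrays centred on their medians 37 rose and 11 fell. Atp5e had the largest rise, 1.67, from 1039.7, 1162.1 and 1043.6 units on day 1 to 3312, 4071.7 and 2999.7 on day 6, and Cox7a1 fell by 1.53 ± 0.34. Its day 6 values lie near the floor, and with the floor at the 40th percentile the change is -0.20 and does not pass. Cox7a2 and Cox6a1 rose by 0.65 ± 0.08 and 0.64 ± 0.08.

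For day 17 against day 14, 10 members rose and 32 fell, where 30.2% of all were called, 17.8% higher and 12.4% lower. In the top quartile of intensity 4 of 54 rose and 31 fell, where 16.9% of all rose and 28.2% fell. The median there was -0.34, where all probe sets of that intensity had -0.09. Below the median intensity 6 of 24 rose and none fell, where 16.2% of all rose and 4.89% fell. The call of Cox6a2 was lost in 6 of 29 settings, among them without day 14 mouse 1 or 3 or day 17 mouse 1 (0.52 to 0.64). Cox7a1 rose by 1.75 ± 0.34 and Cox6a2 by 0.72 ± 0.21, against falls of 0.70 ± 0.08 for Cox7a2 and 0.61 ± 0.08 for Cox6a1. Sdha, at 265.7 ± 25.4 units on day 17 against 231.4 ± 18.8 (SD, n = 3), had overlapping groups and did not pass. For 9-week against day 23, 33 rose and 4 fell, where 31% of all were called, 12.6% higher and 18.4% lower. In the top quartile of intensity 30 of 54 rose, where 27.7% of all rose. Below the median intensity none of 24 rose and 3 fell, where 5.16% of all rose and 14.9% fell. Cox6a2 rose by 1.16 ± 0.21, and Cycs fell by 0.80.

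**Figure D5:**
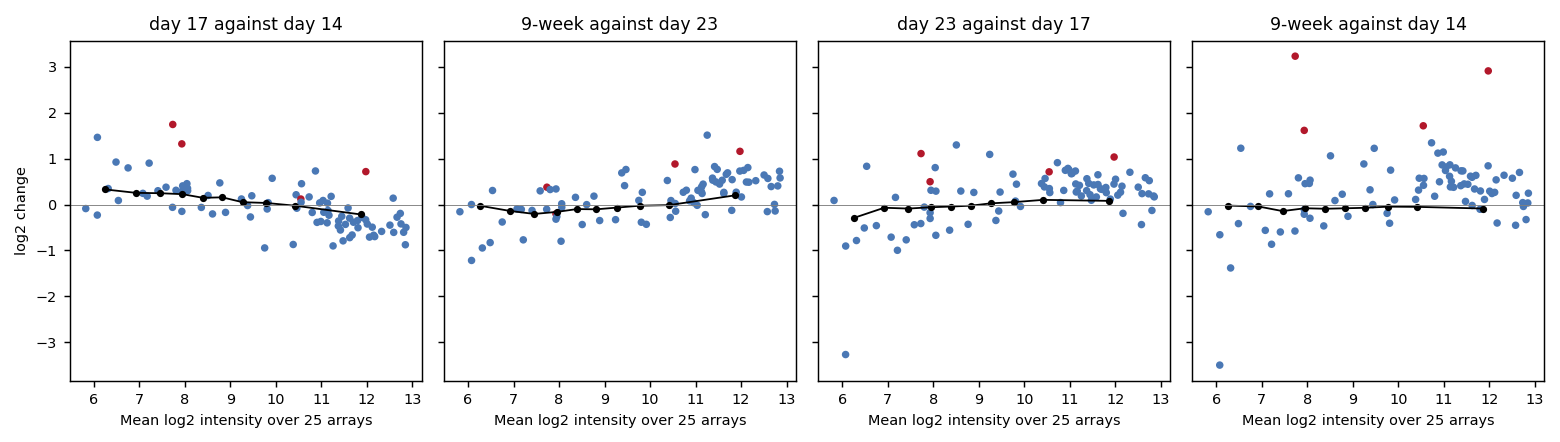
Log2 change of each member (muscle forms in red, others in blue) against its mean log2 intensity, with the median of all probe sets in each of its intensity bins as a black line, in 4 comparisons. In the day 17 against day 14 comparison the members' change falls with intensity (Spearman rho -0.69 across 86 probe sets, which are not independent).

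Other comparisons within a set held fewer calls. For day 14 against day 6, 3 members rose and 10 fell, where 16.6% of all were called, 7.32% higher and 9.25% lower, with a median of -0.01. Ndufa7 fell by 0.84, and the muscle forms did not pass. The count of 13 was 6 without day 6 mouse 2, 8 without day 6 mouse 1, and 8 without either day 14 mouse 1 or day 14 mouse 2, and none were called with the covariate for both sex markers (limma). For day 17 against day 1, 2 rose and 15 fell, where 30.4% of all were called, 13.4% higher and 17% lower. Uqcrc2 fell by 0.88 and Ndufab1 by 0.76 in this comparison. Its 17 calls were 11 without day 1 mouse 1, without day 1 mouse 2, or without day 17 mouse 3.

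For 5-month against 9-week, across the sets, 7 members fell and none rose, where 4.3% of all were called, 1.94% lower and 2.37% higher. These were Cyc1, Ndufa9, Atp5e, Uqcrc1, Ndufb6, Ndufa8 and Ndufv1. The brighter Cyc1 probe set went from 9443.8, 10693.7 and 9697.4 units at 9-week to 4532.3, 5411.4 and 4123 at 5-month, a fall of 1.09 ± 0.16. No 5-month array reached the 9-week range. None of the 7 calls was left without 9-week mouse 1 or 2, or without any 1 of the 5-month mice, and 2 were left without 9-week mouse 3. Without 1-year mouse 1, 2, 3 or 4, which share the fit, the counts were 11, 3, 12 and 2.

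For 1-year against 5-month, 19 rose and 1 fell, where 14.5% of all were called, 5.75% higher and 8.75% lower. The member that fell was Cox8c, a testis form of complex IV, by 0.76 ± 0.22. That call was lost in 12 of 20 settings, among them without 9-week mouse 2, 5-month mouse 1 or 3, or 1-year mouse 1, 2 or 4 (-0.82 to -0.65). The brighter Cyc1 probe set rose by 1.28 ± 0.15, to 14270.2, 9961.9, 10886.5 and 10449 units, and Ndufb6 by 1.19 ± 0.17. All 20 calls lay among the 54 members in the top quartile of intensity, where 21.2% of all probe sets were called. Quantile normalisation left 13 risers. The count was 5 without 5-month mouse 1, 10 without 5-month mouse 3, 32 without 1-year mouse 3 and 13 without 1-year mouse 4. Within the sets, limma called no member for 1-year against 9-week, where 0.147% of all probe sets were called. At an unadjusted p under 0.05, 2 members passed, and other settings called 0 to 2. For 5-month against day 23, a comparison added after the data were seen, 1 member fell, where 2.34% of all were called and 1.46% fell, the dimmer Cyc1 probe set with -0.75 ± 0.19. It was not called without any 1 of the day 23 mice or without 5-month mouse 1 or 3 (-0.85 to -0.62).

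Neighbouring mitochondrial pathways were read from lists of genes. The members Sdhaf1 and Sdhaf2, listed among the assembly factors, were left out of the counts, so that no counted gene is a member. Of all probe sets 38.3% were called by day 23 (19.5% higher) and 47.6% by 9-week (22.2% higher), against which the counts are to be read. Of 15 tested genes of the tricarboxylic acid cycle and pyruvate dehydrogenase 10 rose and none fell on day 23 against day 17, and 9 rose and none fell at 9-week against day 14. Dlat and Dld of pyruvate dehydrogenase rose by 0.94 ± 0.16 and 0.89 ± 0.17 by day 23, and Idh2, the mitochondrial isocitrate dehydrogenase, by 1.37 ± 0.11 by 9-week. Citrate synthase, Cs, had 0.21 ± 0.08 and -0.13 ± 0.08 and did not pass. Of 13 genes of fatty acid oxidation 5 rose and 2 fell by day 23, and 7 rose and 1 fell by 9-week. Acadm, a medium-chain dehydrogenase, rose by 2.23 ± 0.16 by 9-week, and Cpt1a, which loads fatty acids for import, fell by 1.62 ± 0.15.

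Carriers that serve the ATP synthase changed by form as well. Slc25a4, the nucleotide carrier typical of muscle, rose by 0.74 ± 0.13 by day 23 and 1.68 ± 0.13 by 9-week, and Slc25a5, a form of many tissues, had -0.15 ± 0.11 and then fell by 1.07 ± 0.11. Ckmt2, the mitochondrial creatine kinase of muscle, rose by 1.68 ± 0.17 and 3.90 ± 0.17, and is also on the muscle marker list. Of 7 carriers tested 3 rose and 1 fell in each comparison. Of 6 assembly factors 3 rose by day 23, and by 9-week 2 rose and 1 fell, Atpif1, an inhibitor of the ATP synthase, by 0.63 ± 0.09. Of 14 genes of import and structure 5 rose by day 23, while by 9-week 1 rose and 5 fell, the chaperonin Hspd1 by 1.30 ± 0.23. The shares of this list called lie near those of all probe sets.

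Of 11 known regulators of mitochondrial genes 1 rose and 1 fell by day 23, and 2 rose and 4 fell by 9-week. Esrra, a nuclear receptor that acts on such genes, rose by 0.56 ± 0.13 by 9-week and had -0.03 ± 0.13 by day 23. Ppargc1a and Tfam did not pass the filter. Of 15 glycolytic genes 8 rose and 1 fell by day 23, and 11 rose and 2 fell by 9-week. Those with the largest changes, Pgam2 (3.77 ± 0.14), Pfkm (3.47 ± 0.17) and Eno3 (3.20 ± 0.11), are forms typical of muscle, and Pgam2 and Eno3 are also on the muscle marker list.

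Other markers moved in the same comparisons. Of 13 adipocyte genes 10 rose and 2 fell by day 23 and 11 rose and 1 fell by 9-week, with summed intensities of 20322 to 25248 units on day 14 and 52665 to 77690 at 9-week. Of 10 hair shaft genes all 10 fell in both, although 1 of the 9-week arrays stood apart, their sum spanning 2103.8 to 97934 units at that age. Of 5 brown fat genes 1 and then 2 rose, and Ucp1, which defines brown fat, was at the floor on all arrays of day 14, 9-week, 5-month and 1-year. Of 7 macrophage genes 4 and then 6 rose. Of 12 fibroblast and matrix genes 9 rose and none fell by day 23, and 6 rose and 2 fell by 9-week. Of 8 endothelial genes 1 and then 5 rose, and of 7 keratinocyte genes 4 and then 3 rose and 2 fell each time. Of 8 genes of developing muscle 1 and then 2 rose and 1 fell each time. A sign of RNA quality, the ratio of the Gapdh control probe sets at the 3′ and 5′ ends, was 0.82 ± 0.05 on day 17, 0.88 ± 0.015 on day 23, 0.93 ± 0.01 on day 14 and 1.02 ± 0.07 at 9-week (SD, n = 3). The same ratio for Actb ran the other way, with 1.15 ± 0.07 on day 17, 1.10 ± 0.08 on day 23, 1.24 ± 0.06 on day 14 and 1.05 ± 0.10 at 9-week. The part of these in the members' changes was not tested.

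Likeness in age course was measured for Cox7a1, the muscle form with the widest span, as the Pearson correlation of the 8 age means over 6493 genes that are not members. The most alike were Tcea3 (0.988), Tpm2 (0.988), Ckmt2 (0.982), Kpna1 (0.98), B2m (0.978), Entpd2 (0.977), Zbtb16 (0.976), Lpin1 (0.971), Agtrap (0.968) and Eef1a2 (0.968). Tpm2 is a tropomyosin of muscle. Among the members the closest were the dimmer Cox8b probe set (0.949), Ndufs4 (0.934), Cox6a2 (0.913), Uqcrb (0.912) and Sdha (0.911). These describe 8 points that share the same arrays.

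The start regions of the members were described with the same 5 motifs, which were picked after spellings had been looked at in these windows. Of the 75 member genes 61 matched, with 66 windows. The NRF1 motif lay in 13 of the 66 windows (19.7%), where 4.6% of all 32851 windows held it, and the ETS motif in 18 (27.3%) against 8.86%. NRF1 and the ETS factor GABP are known regulators of respiratory genes. The GC box lay in 48.5% of the member windows against 35.7%, the E-box in 6.06% against 16.3% and the MEF2 motif in 1.52% against 3.69%. The NRF1 motif was found for 12 genes: Atp5c1, Atp5g2, Atp5k, Atp5o, Cox6a1, Ndufa5, Ndufa6, Ndufa8, Ndufaf4, Sdha, Sdhd and Uqcrc1.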

How the data were processed

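Total RNA of back skin was measured on 25 oligonucleotide arrays. Values are linear intensities per probe set, deposited by the authors in a series table, and per the values each array was scaled to a trimmed mean of about 500.2 to 500.4 units. No label names the scanner or its software, so these count as not given in the sources used here.

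Before log2, values under 32.7 units (the 20th percentile) were raised to it. A probe set was kept where 3 or more arrays exceeded 127.8 units (the 40th percentile), and the 66 controls left out, which gave 8835. Symbols came from the platform annotation, updated to GRCm38.p6 names. Models were fitted over all kept probe sets by limma (version 3.58.1, under R 4.3.3) using a trended prior and Benjamini-Hochberg adjustment (called: adjusted p under 0.05). The 18 arrays up to 9-week shared 1 fit, the 10 from 9-week on another, and 5-month against day 23 used all 25. The steps were tested on simulated data.

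The members and lists were chosen with earlier results of these data known. Named members were muscle and ubiquitous forms, complex II, the widest and narrowest spans per complex, the 2 largest called changes each way per comparison without overlap, and probe sets that disagreed; other subunits (Ndufv3, Ndufa5, Ndufa6, Ndufc1, Ndufs1, Ndufs4, Ndufv1, Ndufa8, Cox5b, Cox7b, Atp5c1, Atp5l and Uqcrc1) were named after their values were seen. The single changes of these other subunits were not followed through the alternative settings. The number of arrays limits the precision. Start regions are from RefSeq. Mouse numbers were not taken to pair the arrays: deviations of same-numbered arrays correlated at -0.153 to 0.143 up to 9-week (median -0.001, 45 pairs) and at -0.352 to 0.388 from 9-week on (median 0.132, 9 pairs; -0.03 for different numbers). Alternatives covered normalisation, floor, filter, trend, weights, the arrays fitted, a block and each mouse left out.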

Additional observations from a re-analysis of the deposited data

Results flagged for a closer look

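In groups of 4, the gap of an extreme array to its neighbour was set against the range, and 2 of 42 members tested at 1-year were above Dixon's 95% critical value. Chance passes about 1 in 20. Cox7a2l had 2227.5 units in mouse 1 and 1751.1 to 1805.4 in the others, a gap of 0.873 of the range. The dim Ndufb2 probe set had 160.5 units in mouse 3 and was at the floor in the others, at 32.6 units or below, a gap of 1 of the range after the floor. Mouse 3 had the lowest muscle form values and the highest hair shaft sum of its age (299826 units), and a link to either was not tested. With 3 values at the floor any value above it gives that gap, so the floor fixes this result.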

How the results depend on the processing

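The rises of Cox7a1, Cox6a2 and both Cox8b probe sets from day 14 to 9-week passed in all 29 settings tried, with log2 changes of 2.24 to 3.46, 2.72 to 3.19, 1.61 to 1.83 and 1.38 to 1.69. The rise of Cox7a1 from day 17 to day 23 did not pass without day 17 mouse 1 or 2 or day 23 mouse 1 or 3 (0.95 to 1.04), with all 25 arrays, or with the sex-marker covariate (0.05). Outside the left-out mice, 1279 values of named members stayed on their side of the threshold, 179 lost their call, and 1 reversed: the brighter Cyc1 probe set for day 6 against day 1 was -0.11 under quantile normalisation (adjusted p = 0.4681). Counts called that moved by over 1.5 times follow. Quantile normalisation gave 13 for 1-year against 5-month, 28 for day 17 against day 1 and 3 for 5-month against day 23. Without the filter 5-month against 9-week had 4 and 5-month against day 23 had 0, and without the trend 3 and 0. Array weights gave 24 for 5-month against 9-week, 33 for 1-year against 5-month, 30 for day 17 against day 1, 1 for 1-year against 9-week and 4 for 5-month against day 23. With all 25 arrays in 1 fit there were 28 for day 6 against day 1, 5 for day 14 against day 6, 26 for day 17 against day 14, 26 for day 23 against day 17, 22 for 5-month against 9-week, 36 for 1-year against 5-month, 9 for day 17 against day 1 and 2 for 1-year against 9-week. With the arrays of the 2 ages alone 5-month against 9-week had 15 and 5-month against day 23 had 0. The covariate for both sex markers, added after the data were seen, gave 0 for day 14 against day 6, 10 for day 17 against day 14, 4 for day 23 against day 17 and 11 for day 17 against day 1. The cause was not tested. With the mouse number as a replicate block, which was not taken to pair these samples, 5-month against 9-week had 0 and 1-year against 5-month had 6, and no other count moved by over 1.5 times; 6 of 18 arrays up to 9-week and 5 of 9 later ones were closest to their own number. Leaving out 1 mouse at a time gave 72 to 76 for the F test, 34 to 46 for day 6 against day 1, 6 to 16 for day 14 against day 6, 29 to 43 for day 17 against day 14, 33 to 50 for day 23 against day 17, 31 to 41 for 9-week against day 23, 0 to 12 for 5-month against 9-week, 5 to 32 for 1-year against 5-month, 11 to 19 for day 17 against day 1, 43 to 55 for 9-week against day 14, 0 to 0 for 1-year against 9-week and 0 to 1 for 5-month against day 23. Unfiltered, with 103 members, the F test called 74 and 9-week against day 14 called 51.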
